A study of Mus musculus with 59 samples.

Results

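The mouse mitochondrial chromosome carries 37 genes, and all 37 were followed here across 58 RNA-seq libraries. They were taken as the genes whose GENCODE symbol begins with mt-, out of 45706 genes in the count tables. The set holds 13 protein genes, 2 ribosomal RNA genes and 22 tRNA genes. Levels are reads on the gene's own strand, given as CPM, that is counts scaled to the same library total after correction by the TMM factors of edgeR. A gene was called higher or lower when its adjusted p in edgeR's quasi-likelihood test was under 0.05, with Benjamini-Hochberg adjustment over all genes of the fit.

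TCF-1, the product of Tcf7, is a DNA-binding regulator that starts the T cell programme, and the series asks which parts of TCF-1 are needed for its work. The first set of libraries came from scid.adh, a mouse thymic lymphoma line resembling early T cells, labelled as Tcf7 KO in every group. These cells received retroviruses labelled DL1, DL2, DL6, DL7 or DHMG TCF-1, wild-type TCF-1 (WT) or an empty vector (EV), and transduced live cells were sorted 72 h later, giving 2 libraries per group and 14 in all. Their titles carry the name HMG-E10, and whether the line is 1 clone is not given in the sources used here. The primary set came from Tcf7-deficient bone marrow progenitors (strain Tcf7eGFP fl/fl Cre+, labelled LSK) grown on a stroma line carrying a Notch ligand (OP9-DLL1) and sorted after 7 days. DN2 cells (gated c-Kit low, CD44 low, CD25 high) had received L1d, L7d or P45, and DN1 cells (c-Kit high, CD44 high, CD25 low), an earlier stage, L1d, L7d, HMGd, P45 or EV. P45 is the title that the line's WT libraries carry, and the labels do not spell out the other names or the promoter of the Cre. The 44 primary libraries were summed by the number after the letter B to 2 replicates per group and 16 in all. Whether replicates were separate cultures or animals is not stated, so each p-value rests on a spread that may be purely technical.

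The mitochondrial chromosome is copied from both strands as long precursor RNAs that are cut at the tRNAs between the other genes. All protein genes but mt-Nd6 are read from the heavy strand, as are both ribosomal RNAs. mt-Nd6 and 8 tRNAs come from the light strand, most of whose other RNA is normally degraded quickly. The proteins are core subunits of respiratory complexes I, III, IV and V and join many more subunits encoded in the nucleus, while complex II is wholly nuclear. A level of this RNA can differ with the number of mitochondrial genomes, their transcription or the life of the RNA, and in bulk samples fewer cells of a type and less RNA per cell cannot be told apart.

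Reads in genes numbered 3.82 to 9.48 M per library of the line, and the 37 genes took 10.78% to 20.71% of them. For primary libraries the total was 4.17 to 18.96 M, of which the 37 genes took 6.31% to 9.29%. Tcf7 reads over the whole gene were higher in every replicate with a construct than in the EV replicates of the same set (1723 to 3772 CPM with a construct, against 565.2 and 551.3 CPM with EV, in the line, and 625.5 to 963.8 CPM, against 3.33 and 4.26 CPM with EV, in DN1 cells). The level in the line's EV libraries does not show the knockout, and the deleted part of Tcf7 is not given in the sources used here. Nuclear ribosomal RNA took 17.12% and 17.04% of gene reads in the DHMG libraries, against 5.6% to 8.68% in the other 12 cell line libraries. Markers of early T cells were present in the line, at 4166 to 4919 CPM summed over 9 genes. The same list summed to 520.2 to 1655 CPM in DN2 and 91.1 to 120.2 CPM in DN1 replicates, while 8 myeloid genes summed to 1133 to 4445 CPM in DN2 and 9725 to 14980 CPM in DN1 replicates.

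The 6 protein genes between mt-Co1 and mt-Nd4 (chrM:7013-10173, GRCm38) were almost without reads in the line, so complex IV was read from mt-Co1 only and complex V not at all. mt-Co2, mt-Atp8, mt-Atp6, mt-Co3 and mt-Nd4l had 0 to 2 reads in every library. The annotation places a nuclear copy of this stretch on chromosome 1, in a block at chr1:24611535-24616197 with 7 annotated genes. Its transcripts had 0 mismatches to mt-Co2 over 681 bases, to mt-Atp6 over 678, to mt-Co3 over 783 and to mt-Nd4l over 294. Reads that align to several places are set apart in tables of this layout and belong to no gene. The share of a gene's 38-base stretches found in other annotated transcripts was 100% for mt-Co2, 99.9% for mt-Co3, 99.5% for mt-Atp6 and 98.9% for mt-Nd4l. It was 3.59% for mt-Atp8, most of which has no annotated transcript opposite it in the block. mt-Nd4 (62.6%) and mt-Co1 (58.4%) are affected in part, and mt-Nd1 and mt-Rnr1 have 0 such stretches.

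The remaining gene of the stretch, mt-Nd3, a complex I subunit, differs from its copy Gm28438 by a single base in 345. The first 60 bases of both transcripts (GENCODE M21, GRCm38) are shown because that base, in capitals, is the only difference found over the bases compared. Bases that flank the copy were not compared.
mt-Nd3, chrM:9459-9518, plus strand: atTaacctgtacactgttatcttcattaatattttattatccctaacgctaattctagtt
Gm28438, chr1:24613060-24613119, minus strand: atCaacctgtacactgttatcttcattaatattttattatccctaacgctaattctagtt
The substitution is T3C, counted from the first base of mt-Nd3. mt-Nd3 had 0 reads in all 14 libraries of the line, while each primary library had 32 to 141. Gm28438 stood at 35.4 to 63.4 CPM in the line, and primary replicates had 0 to 0.279 CPM. Reads were thus counted for Gm28438 and not for mt-Nd3 in the line, and almost only for mt-Nd3 in primary cells. Whether these reads came from the same stretch was not tested, and the base carried by the cells was not read here. In primary replicates mt-Nd3 lay between 8.13 and 12.6 CPM, and it was not called in any of the 13 primary comparisons.

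Levels per kilobase of gene set the ribosomal RNAs far above the mRNAs. In the cell line the medians over 14 libraries were 58020 CPM per kb for mt-Rnr1, the RNA of the small mitochondrial ribosomal subunit, and 67570 for mt-Rnr2 of the large subunit. Among complex I mRNAs the medians were 2818 CPM per kb for mt-Nd1, 1203 for mt-Nd2, 1080 for mt-Nd5, 487 for mt-Nd4 and 430 for mt-Nd6. mt-Cytb, the only complex III gene of this genome, stood at 2503 CPM per kb and mt-Co1, the catalytic subunit of complex IV, at 2087. Stretches of mt-Nd4 and mt-Co1 that also occur elsewhere are missing from their counts but not from their lengths. In primary replicates mt-Co1 led with a median of 1178 CPM per kb, ahead of mt-Cytb at 794 and mt-Nd1 at 585. As a share of the mitochondrial mRNA reads of a library, mt-Nd1 made up 20.5% to 23.6% in the line, above its 10.3% to 13.3% in primary replicates. mt-Co1 made up 23.9% to 26.9% in the cell line, 33.4% to 35.9% in DN2 replicates and 37.3% to 41.3% in DN1 replicates. The cell line and the primary cells were not compared by a test. Of the 38-base stretches of mt-Co1, 58.4% occur in other annotated transcripts. Whether they were counted alike in both sets was not tested, and a difference there would move the shares of all the mRNAs.

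**Figure D1:**
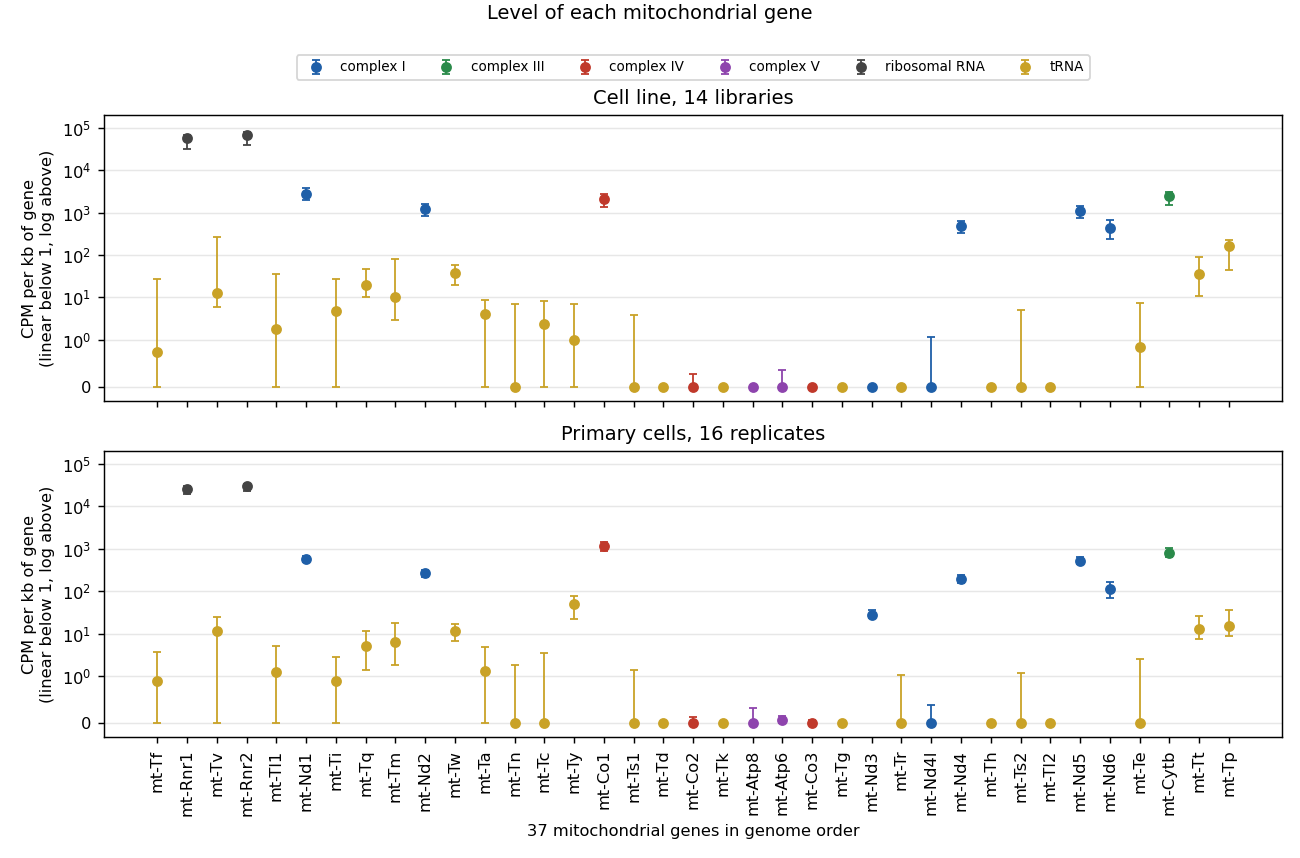
Level of each of the 37 mitochondrial genes in CPM per kilobase of gene, on an axis that is linear below 1 and logarithmic above. Points are medians and bars run from the lowest to the highest value, over 14 cell line libraries (top) and 16 primary replicates (bottom). The stretch from mt-Co2 to mt-Nd4l is near 0, apart from mt-Nd3 in primary cells, and the ribosomal RNAs stand above all mRNAs.

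In 5 of 15 groups all measured mRNAs differed in the same direction between the 2 replicates, and in the other 10 they went both ways. All 7 were lower in replicate 2 than in replicate 1 of DL2, WT, DN2 L7d and DN2 P45, and all 7 were higher in replicate 2 of DN1 L7d. In DL2 the replicate difference ran from -0.28 to -0.07 log2 over the 7 mRNAs, and mt-Rnr1 differed by -0.20 and mt-Rnr2 by -0.09. In DN1 L7d it ran from 0.23 to 0.33 log2, with 0.10 for mt-Rnr1 and 0.12 for mt-Rnr2. Among the 44 primary libraries, 22 had all 7 mRNAs on 1 side of the other libraries of their replicate, 10 of them higher and 12 lower. Their median difference from those libraries reached 0.41 log2 upward and -0.22 downward. These differences use library totals without the TMM factors. Libraries of a replicate were set against each other, so the 22 are not separate cases, because a high library places the others lower. The 7 mRNAs of a library that shifts as a whole are not independent readings of a condition.

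In the cell line the summed mRNA level was lowest with DL1, at 8997 and 8828 CPM, and highest with DL7, at 16790 and 16690 CPM. DL6 libraries held 15740 and 15680 CPM and EV libraries 14460 and 14610 CPM. DL2 libraries held 13160 and 11560 CPM, DHMG libraries 12580 and 12200 CPM, and WT libraries 11270 and 10460 CPM. Between groups, only DL2 and DHMG libraries overlapped. The ribosomal RNA sum kept DL1 lowest (96170 ± 3570 CPM, SD, n = 2) and DL7 highest (188600 ± 8201 CPM), with EV at 160500 ± 4.7 CPM. DHMG libraries stood above EV in ribosomal RNA (174900 ± 352 CPM, SD, n = 2) although their mRNA sum was below it, but by library totals ribosomal RNA took 14.99% and 15.05% of gene reads with DHMG, against 16.49% and 16.61% with EV. In primary replicates the mRNA sum ran from 3932 CPM in DN2 P45 replicate 2 to 5877 CPM in DN1 HMGd replicate 2.

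**Figure D2:**
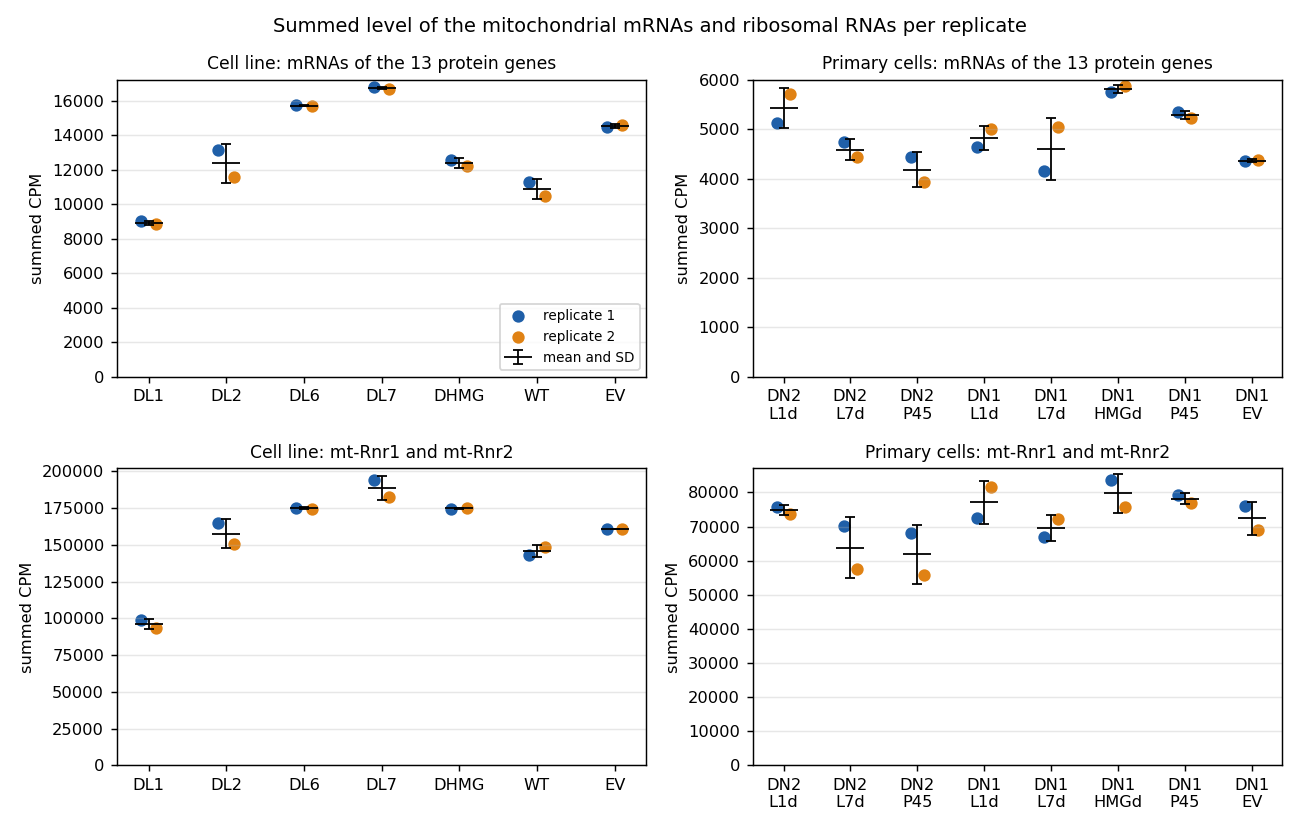
Summed CPM of the mitochondrial mRNAs (top) and of mt-Rnr1 and mt-Rnr2 (bottom) in each group of the cell line (left) and of primary cells (right). Points are the 2 replicates, and the black bars give mean and SD. DL1 lies below every other cell line group in both rows, and the primary groups lie closer together.

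Against EV, the heavy-strand mRNAs fell with DL1, WT and DL2, and 5 of 6 fell with DHMG. They rose in part with DL7 and were not called with DL6. All 6 such comparisons of the line share the EV libraries, so a deviation of those libraries would enter each of them. The fit tested 16 of the 37 genes, which were the 7 mRNAs, both ribosomal RNAs and 7 tRNAs. Among the tRNAs, mt-Tl1 and mt-Tm passed the low-count filter only through their reads in the DHMG libraries. In DL1 against EV 9 members were called, all lower, where 5.12% of all tested genes were called lower and 5.86% higher. WT against EV had 7 lower members (12.6% of all genes lower, 12.3% higher). DL2 against EV had 6 lower and 1 higher (2.71% lower, 2.36% higher), and DHMG against EV 6 lower and 6 higher (7.47% lower, 9.64% higher). DL7 against EV had 7 higher members (1.56% higher, 1.22% lower), and DL6 against EV 1 higher (0.704% higher, 0.795% lower).

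The complex I mRNAs mt-Nd1, mt-Nd2, mt-Nd4 and mt-Nd5, core subunits of the NADH dehydrogenase, moved alike. mt-Nd1 stood at 2028 and 1859 CPM with DL1, 2568 and 2467 CPM with WT, and 3130 and 3145 CPM with EV. DL1 libraries were thus below both WT libraries, which were below both EV libraries. mt-Nd4 stood at 470 and 483 CPM with DL1, 579 and 493 CPM with WT, 870 and 879 CPM with DL7, and 796 and 784 CPM with EV. With WT it was 1.47-fold lower than with EV (log2 -0.56, SE 0.06, edgeR adjusted p = 3.78e-10), the largest change among the 6 called mRNAs, and mt-Nd1 had the smallest of these (log2 -0.32, SE 0.05, edgeR adjusted p = 1.96e-06). With DL2 the largest fall was that of mt-Nd5, at 1960 and 1860 CPM against 2360 and 2372 CPM with EV (1.24-fold, edgeR adjusted p = 7.52e-05), and the smallest was 1.15-fold for mt-Nd2 (edgeR adjusted p = 0.0186).

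mt-Cytb, which carries electrons through complex III, stood at 1805 and 1715 CPM with DL1, 2279 and 2046 CPM with WT, and 2967 and 2945 CPM with EV. Its 1.68-fold fall with DL1 was the largest among the mRNAs there (log2 -0.75, SE 0.06, edgeR adjusted p = 4.35e-14). With DHMG it stood at 2904 and 2804 CPM and was not called (log2 -0.05, edgeR adjusted p = 0.602), while the other 5 heavy-strand mRNAs were lower by 0.25 to 0.30 log2. mt-Co1, the complex IV subunit that binds oxygen, stood at 2148 and 2376 CPM with DL1, 4133 and 4178 CPM with DL7, 3147 and 3030 CPM with DHMG, and 3621 and 3744 CPM with EV. Its 1.19-fold fall with DHMG was the smallest called there (edgeR adjusted p = 0.000187), and its rise with DL7 was the smallest called among mRNAs there (log2 0.17, edgeR adjusted p = 0.0392). The DL7 calls rest on few libraries: of the 7, 2 were left without EV replicate 1 and 3 without EV replicate 2 or DL7 replicate 1. Of the 7 DL2 calls, 1 was left without DL2 replicate 2, 3 without EV replicate 2 and 4 without EV replicate 1.

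Set against WT, the constructs parted in opposite directions. DL1 against WT had 10 of 16 members lower and 0 higher (4.03% of all genes lower, 6.74% higher), and DL7 against WT had 9 higher and 0 lower (15.4% higher, 15% lower). DL1 against DL7, which uses neither EV nor WT, had 10 lower and 0 higher (8.89% lower, 9.52% higher). By library totals the genes called there were 2477 higher and 581 lower, against 1041 and 972 with TMM, and the 10 lower members stayed 10. In that comparison the heavy-strand mRNAs were lower by 0.88 to 0.96 log2, and mt-Cytb fell the most, by 0.96 (1.95-fold, SE 0.06, edgeR adjusted p = 5.92e-18). With DL7 against WT, mt-Nd4 rose the most of the mRNAs (1.63-fold, log2 0.70, SE 0.06, edgeR adjusted p = 5.35e-13) and mt-Nd6 the least (1.29-fold, edgeR adjusted p = 1.31e-05). With DL1 against WT, mt-Nd6 fell the most (1.32-fold, log2 -0.40, SE 0.07, edgeR adjusted p = 2.47e-05) and mt-Nd4 the least (log2 -0.17, edgeR adjusted p = 0.0476). That mt-Nd4 call was lost without WT replicate 1 (adjusted p = 0.761 in edgeR).

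**Figure D3:**
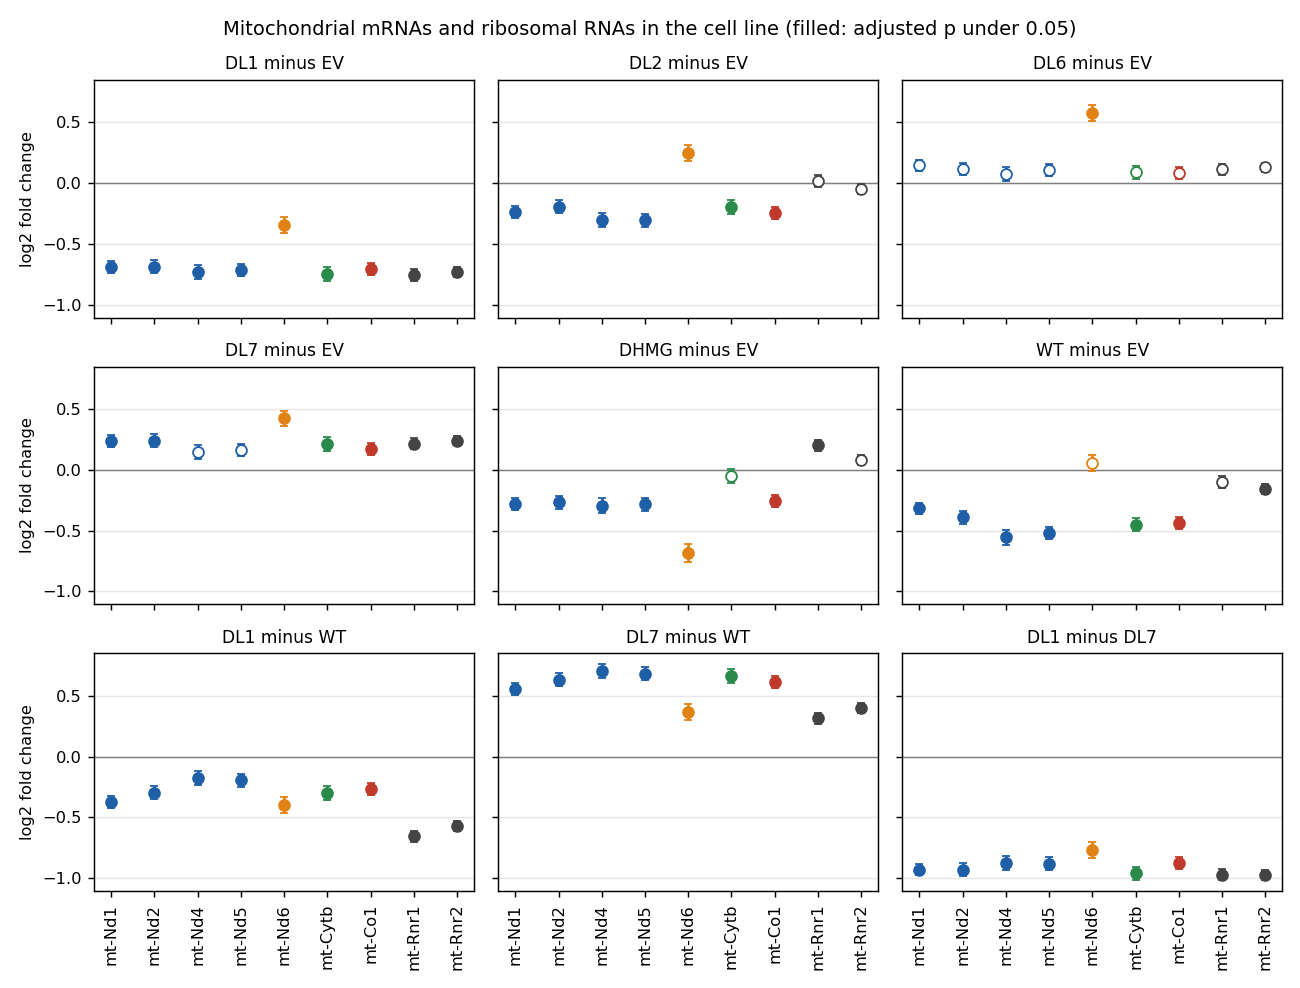
Log2 fold changes of 7 mRNAs and 2 ribosomal RNAs in the 9 comparisons of the cell line, with bars for the SE and filled points for an edgeR adjusted p under 0.05. In the panels with DL1 all 9 points lie below 0, while mt-Nd6 (orange) leaves the other mRNAs with DL2, DL6, DL7, DHMG and WT.

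mt-Nd6, the complex I subunit read from the light strand, followed the heavy-strand mRNAs in only some comparisons with EV. It was called in their direction with DL1, DL7 and DHMG, by a different size. With DL2 it was called in the other direction, with WT it was not called, and with DL6 it alone was called. It stood at 158 and 184 CPM with DL1, 261 and 249 CPM with DL2, 341 and 300 CPM with DL6, 289 and 288 CPM with DL7, 140 and 127 CPM with DHMG, 229 and 218 CPM with WT, and 212 and 218 CPM with EV. It was higher than with EV in DL6 (1.49-fold, log2 0.57, SE 0.06, edgeR adjusted p = 2.41e-08), DL7 (1.34-fold, edgeR adjusted p = 1.42e-05) and DL2 (1.19-fold, edgeR adjusted p = 0.0171). It was lower with DHMG (1.60-fold, log2 -0.68, SE 0.08, edgeR adjusted p = 2.03e-09) and with DL1 (1.27-fold, edgeR adjusted p = 0.000313), and with WT its log2 difference was 0.06 (edgeR adjusted p = 0.595). The DL2 rise was lost with any 1 of the 4 libraries left out. Per 100 heavy-strand mRNA reads there were 1.78 and 2.13 mt-Nd6 reads with DL1, 2.21 and 1.95 with DL6, 1.13 and 1.05 with DHMG, 2.07 and 2.13 with WT, and 1.49 and 1.51 with EV. The DHMG libraries held the lowest 2 of the 14 values.

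Reads on the strand opposite to a gene show RNA of the other strand, and they were tested in a fit of their own that was added after the data were seen. Over mt-Nd4 they made up 15.3% and 15.5% of the reads with WT, 13.4% and 12.7% with DL6, 4.87% and 5.54% with DHMG, and 7.81% and 8.52% with EV. Over mt-Nd1 and both ribosomal RNAs they made up 0.434% to 0.536% of the reads in the cell line. In primary replicates the share over mt-Nd4 was 1.71% to 3.06%. Over all genes the opposite-strand share was 8.56% and 8.49% with DHMG, against 5.57% and 5.44% with EV, and its part in the DHMG results was not tested. The shares of all genes called that follow are over the 5110 genes that this fit tested in the line, in either direction. Light-strand RNA over mt-Nd4 was higher with DL6 than with EV (log2 0.83, edgeR adjusted p = 4.1e-06), as it was over mt-Nd5 (log2 0.62, edgeR adjusted p = 2.45e-05), where 0.117% of all genes were called. With DHMG it was lower over mt-Nd4 (log2 -0.99, edgeR adjusted p = 3.26e-07) and over mt-Nd5 (log2 -0.65, edgeR adjusted p = 2.79e-06), where 1.17% of all genes were called. With WT it was higher over mt-Nd4 (log2 0.48, edgeR adjusted p = 0.0188, 1.55% of all genes called), while own-strand mt-Nd4 was lower, and this call was lost without either EV replicate or WT replicate 1. Heavy-strand RNA over mt-Nd6 was lower with DL1 (log2 -0.80, edgeR adjusted p = 1.12e-08, 0.783% of all genes called) and with WT (log2 -0.57, edgeR adjusted p = 7.06e-05), as the heavy-strand mRNAs were. Ignoring strand joins these opposite reads to mt-Nd6, and its log2 difference was then -0.32 with WT and -0.08 with DL2.

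**Figure D4:**
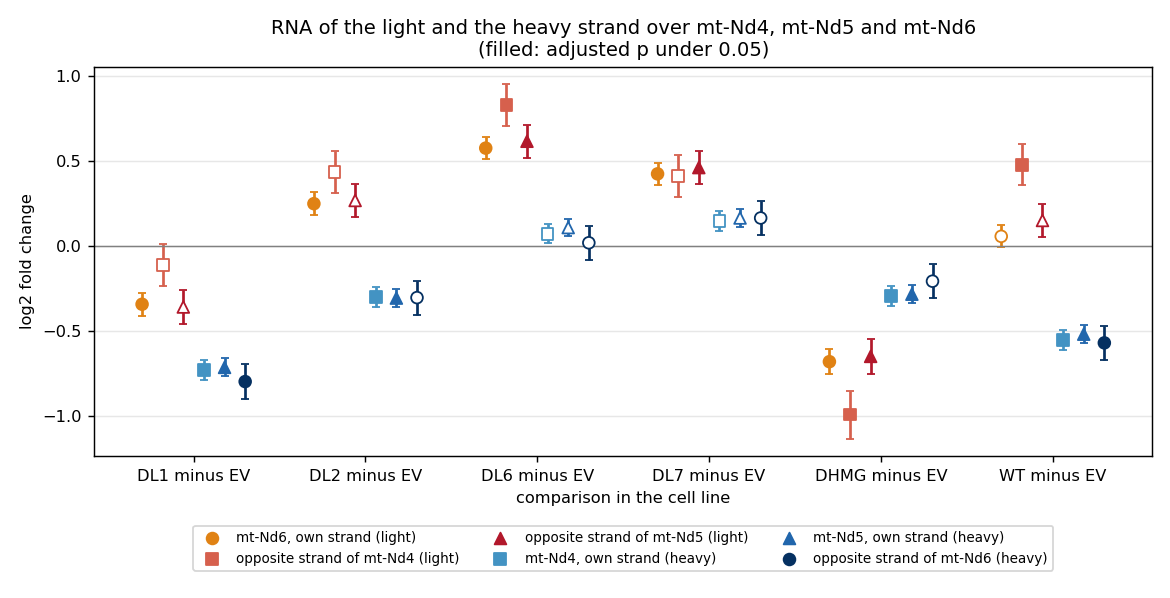
Log2 fold changes against EV of light-strand RNA (orange and red) and heavy-strand RNA (blue) over mt-Nd4, mt-Nd5 and mt-Nd6 in the cell line, with bars for the SE and filled points for an edgeR adjusted p under 0.05. With WT and DL2 the strands lie on different sides of 0, with DL6 light-strand RNA lies above heavy-strand RNA, and with DHMG it lies below.

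The ribosomal RNAs followed the heavy-strand mRNAs with DL1 and DL7, and less closely with WT and DHMG. mt-Rnr1 stood at 33150 and 30390 CPM with DL1, 61620 and 61690 CPM with DHMG, 49010 and 51080 CPM with WT, and 53840 and 53460 CPM with EV. With DL1 it was 1.69-fold lower than with EV (log2 -0.76, edgeR adjusted p = 1.49e-16) and mt-Rnr2 1.66-fold lower (edgeR adjusted p = 8.95e-19). With DL7 mt-Rnr1 was 1.16-fold higher (edgeR adjusted p = 0.00449) and mt-Rnr2 1.18-fold higher (edgeR adjusted p = 6.81e-05). With WT mt-Rnr1 was not called (log2 -0.10, edgeR adjusted p = 0.118) and mt-Rnr2 was lower (log2 -0.16, edgeR adjusted p = 0.00205). DL2 and DL6 had no call for either, with log2 differences between -0.05 and 0.13. With DL1 against WT both fell, by 0.66 and 0.57 log2, with DL7 against WT both rose, by 0.31 and 0.40, and with DL1 against DL7 both fell by 0.97.

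With DHMG, mt-Rnr1 was called 1.15-fold higher than with EV (edgeR adjusted p = 0.00168) and mt-Rnr2 was not called (log2 0.08, edgeR adjusted p = 0.151). This direction depends on the scaling: by library totals alone the log2 differences were -0.06 for mt-Rnr1 and -0.18 for mt-Rnr2, and the median of all genes moved by -0.27. The DHMG libraries are those in which nuclear ribosomal RNA took about 17% of the gene reads, and its part in the DHMG results was not tested. By library totals 240 genes were higher and 3628 lower in DHMG, against 1054 and 817 with TMM, and 3 members were higher and 8 lower. The falls of mt-Nd6 and of the other called mRNAs kept their direction under that scaling.

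The tRNAs were barely read, with 70 to 215 reads per cell line library over all 22 genes. Among them 5 had 0 reads in every library, and most reads fell on mt-Tp, mt-Tt, mt-Tv and mt-Tw. The tRNA sum was 56.2 and 50.6 CPM with DHMG, against 18.3 and 16.4 CPM with EV, and between 12.96 and 26.2 CPM in each other library. With DHMG 5 of 7 tested tRNAs were higher than with EV. With mt-Rnr1 this made 6 higher members, of which the count was 3 without DHMG replicate 1 or EV replicate 2, 4 without DHMG replicate 2 or EV replicate 1, and 2 in DESeq2, while the lower members numbered 6 in each. The largest change was in mt-Tv, the valine tRNA between the 2 ribosomal RNAs, at 18.8 and 17.1 CPM against 0.813 and 0.512 CPM with EV (25.8-fold, log2 4.69, SE 0.48, edgeR adjusted p = 3.13e-10). mt-Tl1, a leucine tRNA that follows mt-Rnr2, had 2.61 and 2.13 CPM, against 0.406 and 0.171 CPM with EV, and mt-Tm, the methionine tRNA, 5.49 and 3.66 CPM, against 0.542 and 0.683 CPM with EV. In reads, mt-Tl1 had 10 and 7 with DHMG and 3 and 1 with EV, and mt-Tm had 21 and 12 with DHMG and 4 and 4 with EV. Both passed the low-count filter only through the DHMG libraries, so their calls among the 5 are no separate support for a rise. For mt-Tv, mt-Tl1 and mt-Tm the DHMG libraries lay above both EV libraries. Their sequences are shown with the anticodon in capitals, from GENCODE M21 transcripts on the plus strand of chrM (GRCm38), to show how short the counted regions are.
mt-Tv, chrM:1025-1093: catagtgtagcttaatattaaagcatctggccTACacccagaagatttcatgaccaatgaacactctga
mt-Tl1, chrM:2676-2750: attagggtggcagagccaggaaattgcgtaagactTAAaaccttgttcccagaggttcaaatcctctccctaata
mt-Tm, chrM:3845-3913: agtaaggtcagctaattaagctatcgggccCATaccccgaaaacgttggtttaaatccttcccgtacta
Read pairs (38 and 37 bases) that overlap 2 genes are set apart as ambiguous in tables of this layout and are not in these counts.

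Outside DHMG few tRNAs were called in the cell line. mt-Tp, the proline tRNA of the light strand, stood at 6.64 and 2.96 CPM with DL1, 12.4 and 12.9 CPM with DL7, 10.97 and 10.6 CPM with WT, and 7.72 and 6.83 CPM with EV. It was lower with DL1 than with DL7 (2.41-fold, edgeR adjusted p = 0.000132) and than with WT (2.07-fold, edgeR adjusted p = 0.00269), and the call against WT was lost without DL1 replicate 2 (adjusted p = 0.0554 in edgeR). Over this gene 74.1% of the reads of the cell line lay on the opposite strand. mt-Ty, the tyrosine tRNA before mt-Co1, had 0 to 4 reads in each library of the line and 3 to 60 in each primary one, where 93.5% of the reads at its position lay on the opposite strand.

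In primary DN1 cells 0 of 17 tested members were called in any of the 6 comparisons with edgeR. P45 against EV had the lowest adjusted p, 0.0555, with 7 members at an unadjusted p under 0.05 and 3 called by DESeq2 (1.75% of all genes higher and 5.72% lower in edgeR). The mRNA sum was 5355 and 5230 CPM with P45, against 4353 and 4390 CPM with EV, so these replicates did not overlap. The 7 mRNAs had a median log2 difference of 0.31, beside -0.01 over all genes. HMGd against EV also had 7 members at an unadjusted p under 0.05 and 5 called by DESeq2, with a median of 0.42 over the mRNAs with 0.00666% of all genes higher and 0% lower in edgeR. The mRNA sum there was 5760 and 5877 CPM with HMGd. L1d against EV (0.2% of all genes higher, 0.273% lower), L7d against EV (1.7% higher, 3.3% lower) and L1d against P45 (1.22% higher, 0.113% lower) had 0 members at an unadjusted p under 0.05 and 0 called by DESeq2. L7d against P45 (0.00666% higher, 0% lower) had 3 at an unadjusted p under 0.05 and 0 called by DESeq2.

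mt-Nd6 in DN1 cells stood at 59.0 and 61.2 CPM with L1d, 55.7 and 68.6 CPM with L7d, 60.4 and 86.1 CPM with HMGd, 70.6 and 62.5 CPM with P45, and 51.5 and 53.6 CPM with EV. The P45 and EV replicates did not overlap, and no comparison of mt-Nd6 in DN1 cells was called in edgeR. With each library taken as a replicate, 7 members were called in P45 against EV and 7 in HMGd against EV. That setting treats libraries of 1 B replicate as separate samples. The shares of all genes given above are those of the main edgeR fit, so they are no background for this setting or for DESeq2.

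In DN2 cells 4 members were higher with L1d than with P45, namely mt-Co1, mt-Cytb, mt-Nd4 and mt-Nd5, where 8.05% of all genes were called higher and 2.8% lower. mt-Nd4 stood at 281 and 341 CPM with L1d, against 238 and 220 CPM with P45 (1.36-fold, log2 0.44, SE 0.10, edgeR adjusted p = 0.0128), the largest of the 4. mt-Nd5 stood at 971 and 1180 CPM with L1d, against 864 and 819 CPM with P45 (1.28-fold, edgeR adjusted p = 0.0279), the smallest. mt-Co1 stood at 1772 and 2050 CPM with L1d, against 1483 and 1374 CPM with P45, and mt-Cytb at 1098 and 1093 CPM, against 900 and 744 CPM with P45. For each of the 4 the L1d replicates lay above both P45 replicates. mt-Nd6 was at 52.7 and 65.3 CPM with L1d, against 47.0 and 35.5 CPM with P45 (log2 0.52, edgeR adjusted p = 0.0514). All 4 calls were lost without L1d replicate 2 or without P45 replicate 2.

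The DN2 groups also differed in markers of other cells. Summed over 8 myeloid genes the level was 4445 and 3741 CPM with L1d, against 1677 and 1735 CPM with P45. Over 9 early T cell genes it was 591 and 520 CPM with L1d, of which 3 genes had 0 reads, against 1655 and 1523 CPM with P45. Stroma genes, 3 of 5 of them with reads, summed to 21.4 and 175.9 CPM with L1d, against 31.1 and 82.5 CPM with P45. Mast cell and basophil genes summed to 300.0 and 324.3 CPM with L1d, against 171.5 and 205.9 CPM with P45. The part of these cells in the mitochondrial result was not tested. L7d against P45 in DN2 cells had 0 members called in edgeR, 0 in DESeq2 and 0 at an unadjusted p under 0.05 (0.24% of all genes higher, 0.0533% lower), and the mRNA sums were 4747 and 4438 CPM with L7d, against 4444 and 3932 CPM with P45.

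DN2 cells were set against DN1 cells with the same construct, in which a large share of all genes was called, so a called member is close to the background. With P45, 5 members were lower in DN2 and 0 higher (22.6% of all genes lower, 20.6% higher). mt-Nd6 stood at 47.0 and 35.5 CPM in DN2, against 70.6 and 62.5 CPM in DN1 (1.61-fold lower, log2 -0.69, SE 0.16, edgeR adjusted p = 0.00217), and mt-Co1 at 1483 and 1374 CPM, against 2097 and 2051 CPM in DN1. mt-Nd4 had the smallest called fall of an mRNA (1.21-fold, edgeR adjusted p = 0.04), and mt-Rnr2 fell 1.28-fold (edgeR adjusted p = 0.0257). With L1d, 4 members were higher in DN2 and 1 lower (20.1% higher, 19.7% lower). Of the 4 called mRNAs mt-Nd2 rose the most (1.32-fold, edgeR adjusted p = 0.0175) and mt-Cytb the least (1.22-fold, edgeR adjusted p = 0.0291). The lower member was mt-Tm (4.91-fold, log2 -2.30, edgeR adjusted p = 0.0135), a call lost without L1d replicate 2 of either stage. It rests on few reads, 4 and 2 in the DN2 replicates against 5 and 22 in the DN1 replicates. With L7d only mt-Nd6 was called, at 46.8 and 45.2 CPM in DN2, against 55.7 and 68.6 CPM in DN1 (1.35-fold lower, edgeR adjusted p = 0.0353, where 21.8% of all genes were lower and 19.5% higher). Per 100 heavy-strand mRNA reads mt-Nd6 had 0.912 to 1.16 reads over the 6 DN2 replicates and 1.06 to 1.49 over the 10 DN1 replicates.

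By library totals the split of all genes moved to 4385 higher and 2418 lower with P45 (3095 and 3398 with TMM), with 2 members lower. With L1d it moved to 4821 and 1918 (3023 and 2956 with TMM), with 6 members higher and 1 lower, and with L7d to 4601 and 2132 (2923 and 3278 with TMM), with 4 members higher. Leaving out replicates also moved these counts. With P45, 2 of the 5 calls were left without either DN1 replicate and 1 without DN2 replicate 2. With L1d, 0 calls were left without DN2 replicate 2, 1 without DN1 replicate 1, which rests on 2 libraries, and 3 without DN1 replicate 2. With L7d the mt-Nd6 call was lost without either DN2 replicate and without DN1 replicate 2, where 1 other member was called higher. DN2 and DN1 cells also differ in the early T cell and myeloid marker sums given above, and the part of this in the mitochondrial levels was not tested.

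Whether the L1d minus P45 difference itself differed between DN2 and DN1 was tested as an interaction. Of 17 members mt-Cytb alone was called, higher (1.21% of all genes higher, 0.366% lower). It stood at 1098 and 1093 CPM with L1d and 900 and 744 CPM with P45 in DN2, and at 899 and 895 CPM with L1d and 1021 and 999.9 CPM with P45 in DN1. The difference of the log2 differences was 0.59 (SE 0.14, edgeR adjusted p = 0.0478). The 7 mRNAs counted in both sets had positive interactions, between 0.39 and 0.66 log2, and mt-Nd6 had the largest of these without being called (edgeR adjusted p = 0.173). The mt-Cytb call was lost with any 1 of 7 of the 8 replicates left out, DN2 P45 replicate 1 being the exception. The same interaction for L7d had 0 members called in edgeR and in DESeq2, and 5 at an unadjusted p under 0.05 (0% of all genes called in either direction).

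Nuclear genes for the same machinery moved against the mitochondrial mRNAs in several comparisons of the line. The lists and their genes were chosen with earlier results of these data known, and they are given as counts beside the background. With WT against EV, where 12.3% of all genes were higher and 12.6% lower, 25 of 37 nuclear complex I subunits were higher and 0 lower, as were 9 of 9 of complex III, 9 of 11 of complex IV, 15 of 17 of complex V and 3 of 4 of complex II. Ndufa5 of complex I rose 1.56-fold (edgeR adjusted p = 1.59e-06), Uqcrb of complex III 1.51-fold (edgeR adjusted p = 6.27e-05) and Cox6b1 of complex IV 1.47-fold (edgeR adjusted p = 8.6e-06). The median log2 difference was 0.34 for the complex I list and 0.51 for complex III, beside -0.44 for the 7 mitochondrial mRNAs and 0.01 for all genes. Of 77 mitochondrial ribosomal proteins 44 were higher and 0 lower, with Mrpl9 1.56-fold higher (edgeR adjusted p = 6.99e-07).

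Genes that copy, transcribe or process mitochondrial DNA and RNA were called as follows. With WT against EV, where 12.3% of all genes were higher, 2 of 16 genes of DNA copying and transcription were higher, a count near the background. These were Tefm, an elongation factor of mitochondrial transcription (1.47-fold, edgeR adjusted p = 0.024), and Tfam, which packs the genome and starts its transcription (1.33-fold, edgeR adjusted p = 1.64e-05). Of 29 genes of RNA processing and turnover 7 were higher, among them Slirp, which binds and protects mitochondrial mRNAs (1.52-fold, edgeR adjusted p = 0.0179), and Pnpt1, a subunit of the complex that degrades light-strand RNA (1.35-fold, edgeR adjusted p = 5.37e-05). Of 8 regulators of mitochondrial biogenesis 0 were called. With DHMG against EV Polrmt, the mitochondrial RNA polymerase, was 1.34-fold lower (edgeR adjusted p = 0.00461). It was the only 1 of 16 genes of its list called, a count near the background of 7.47% of all genes lower.

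With DL7 against WT the lists ran the other way, with 28 of 37 complex I subunits, 9 of 9 of complex III, 10 of 11 of complex IV, 15 of 17 of complex V and 54 of 77 mitochondrial ribosomal proteins lower and 0 of each higher. The background there was 15% of all genes lower. This comparison shares its WT libraries with WT against EV, so the 2 are not separate results. With DL7 against EV the median log2 difference was -0.036 for the complex I list and 0.000223 for complex III. With DL1 against EV, where 5.86% of all genes were higher, 3 of 37 genes of complex I, 4 of 9 of complex III, 2 of 11 of complex IV and 7 of 17 of complex V were higher and 0 lower. The complex I count is near the background. With DL1 against DL7, where 9.52% of all genes were higher, 13, 4, 4 and 9 of the same lists were higher and 0 lower, and 24 mitochondrial ribosomal proteins were higher and 1 lower. With DL1 against WT, nuclear and mitochondrial genes were lower alike, with 10, 5, 7 and 4 nuclear genes of these complexes lower and 0 higher, where 4.03% of all genes were lower. DL6 and DL7 against EV had 1 call in these 4 complexes, Atp5f1 with DL7 (1.22-fold lower, edgeR adjusted p = 0.0234). DHMG against EV had 13 complex I subunits higher and 0 lower, but 2 higher and 5 lower by library totals, so its direction depends on the scaling.

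In primary cells few nuclear genes of the complexes were called between constructs. With L1d against P45 in DN2 cells, 1 of 4 genes of complex II, 1 of 14 of complex IV and 1 of 17 of complex V were lower. Complex I had 0 of 37 called and complex III 0 of 9, and 0 genes of these lists were higher. The background there was 2.8% of all genes lower and 8.05% higher, so these single calls are not read as a shift of the lists. Between DN2 and DN1 cells the RNA processing list had 15 of 29 genes higher with L1d, 11 with L7d and 13 with P45, and 0 lower, where 20.1%, 19.5% and 20.6% of all genes were higher. The tRNA-modifying enzyme Trit1 was 1.77-fold higher with L1d (edgeR adjusted p = 0.00171), 1.84-fold with L7d (edgeR adjusted p = 0.000501) and 1.88-fold with P45 (edgeR adjusted p = 0.00034). Of 18 genes of DNA copying and transcription, 7 were higher and 2 lower with L1d, and 6 higher and 1 lower with L7d and with P45. The shares of all genes lower were 19.7%, 21.8% and 22.6% with L1d, L7d and P45. Among the lower genes was Polg, the polymerase that copies the mitochondrial genome (1.68-fold with L1d, 1.79-fold with L7d, 1.80-fold with P45). Twnk of the same list was higher, 1.63-fold with L1d, 1.58-fold with L7d and 1.51-fold with P45. Of 37 nuclear complex I subunits 1 was higher and 7 were lower with L1d, a lower share near the 19.7% of all genes, and by library totals 12 were higher and 3 lower.

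**Figure D5:**
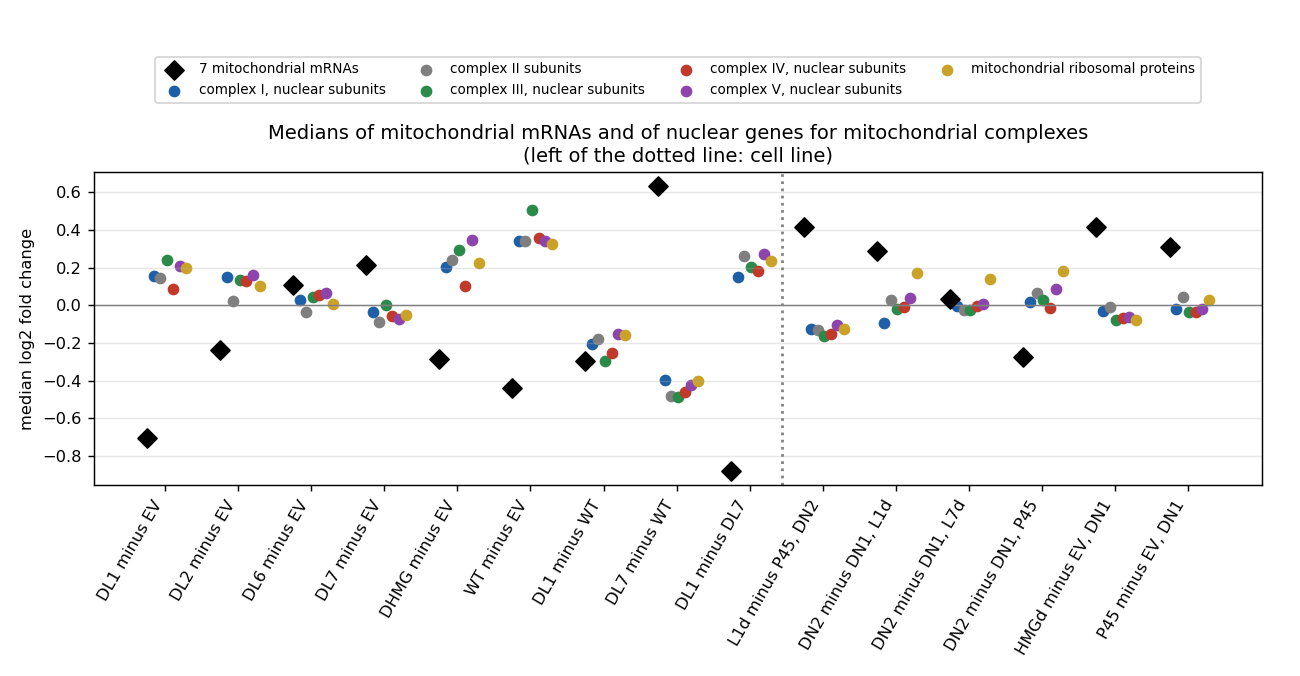
Median log2 fold change of the 7 measured mitochondrial mRNAs (black diamonds) and of nuclear genes for the respiratory complexes and the mitochondrial ribosome (coloured points) in 9 comparisons of the cell line, left of the dotted line, and 6 of primary cells. With WT against EV the diamond lies at -0.44 and every coloured point above 0, and with DL7 against WT they change sides. Both comparisons use the same WT libraries.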

How the data were processed

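Reads of total RNA libraries (SMARTer Stranded Pico kit, read pairs of 38 and 37 bases) were counted per gene by the authors, and the values used are the raw read counts as deposited, on the gene's own strand (the 4th column of tables laid out as STAR writes gene counts). STAR 2.5.0a and HTSeq 0.6.1 are named in the submitters' processing notes. One incomplete file, which stops after 14312 genes, was left out (DN1 L1d replicate 1, library 3). The 44 primary libraries were summed by B number to 16 replicates.

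Genes were tested with edgeR 4.0.16 (quasi-likelihood, TMM, R 4.3.3) in 1 fit of the 14 cell line libraries (10939 genes, 16 members) and 1 of the 16 primary replicates (15010 genes, 17 members), after edgeR's filter on low counts, over 22 comparisons. Fold changes use a prior count of 0.125. DESeq2 1.42.0, other scalings, no filter, counts ignoring strand, single libraries as replicates, a replicate block and leaving out each replicate were alternatives. The fit of opposite-strand reads and a cell line fit without DHMG were added after seeing the data. The members and gene lists were chosen with earlier results of these data known. On simulated data for DL1 against EV (10939 genes) the fit recovered 56% of genes changed 1.5-fold and 84% of those changed 2-fold, and for P45 against EV in DN1 (15010 genes) 40% and 66%. Among replicates of a group and libraries of a primary replicate, no pair agreed within sampling noise (lowest chi-square per degree of freedom 1.33). Other pairs of libraries were not compared in this way. Named members are the called mRNAs with the largest and smallest change, mt-Nd6, mt-Rnr1, mt-Rnr2 and the called tRNA with the largest change, and at most 2 called genes per direction of each nuclear list. Other members are described with their values. Gene positions and sequences are from GENCODE M21 on GRCm38, which named 45143 of 45706 gene IDs.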

Additional observations from a re-analysis of the deposited data

Results flagged for a closer look

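In DN2 cells with P45, library 3 of replicate 1 stood apart from the other 5 libraries of its group. Mitochondrial mRNAs made up 0.522% of its gene reads, against 0.417% to 0.451% in the others. It had 1.22 mt-Nd6 reads per 100 heavy-strand mRNA reads, against 0.861 to 0.955 in the others. These are 2 values set apart among 24 groups and measures examined, and chance sets apart about 5% of them. The difference between L1d and P45 differed between DN2 and DN1 cells for mt-Cytb, with a log2 interaction of 0.59 (edgeR adjusted p = 0.0478). The call was lost with any 1 of 7 of the 8 replicates left out, DN2 P45 replicate 1 being the exception. It was also lost with DESeq2's size factors in edgeR, ignoring strand, by library totals and with mitochondrial and ribosomal RNA left out of the scaling.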

How the results depend on the processing

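Counts of members called (edgeR) moved by over 1.5 times as follows. For DL6 against EV the count of 1 became 0 ignoring strand and 5 with no filter. For DL7 against EV the 7 became 4 by library totals. For DN2 against DN1 with L7d the 1 became 0 ignoring strand, 4 with single libraries as replicates, 4 by library totals and 3 with no filter, and with P45 the 5 became 2 ignoring strand and 2 by library totals. In DN1, HMGd against EV had 0 calls, but 5 in DESeq2, 7 with single libraries and 7 with no filter, and P45 against EV had 0, but 3 in DESeq2, 7 with single libraries, 3 by library totals and 7 with no filter. Single libraries gave 1 call for L1d against P45 in DN1, 2 for L7d against P45 in DN1 and 2 for the L7d interaction. L1d against P45 in DN2 had 4 calls, 9 with single libraries and 8 with no filter. Its interaction had 1 call, but 4 in DESeq2, 8 with single libraries, 7 with no filter, and 0 with DESeq2's size factors in edgeR, ignoring strand, by library totals or with mitochondrial and ribosomal RNA left out of the scaling. Same-numbered replicates did not deviate together in the line (r between -0.04 and 0.04), and in 11 of 28 primary pairs of groups r was over 0.1, with a median of 0.08. Since not every pair exceeded 0.1, the numbers were not taken to pair samples. With a replicate block the count was 2 for DL6 against EV, 2 for P45 against EV in DN1 and 3 for the L1d interaction, and it moved no other count by over 1.5 times.

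Leaving out 1 replicate gave these counts against EV: DL1 had 9 to 11 calls, DL2 had 1 to 6, DL6 had 1, DL7 had 2 to 5, DHMG had 9 to 10 and WT had 6 to 7. It gave 8 to 11 for DL1 and 9 for DL7 against WT, and 10 to 11 for DL1 against DL7. For DN2 against DN1 it gave 0 to 5 with L1d, 0 to 1 with L7d and 1 to 5 with P45. It gave 0 to 5 for L1d against P45 in DN2, 0 to 3 for its interaction, and 0 to 1 for HMGd against EV, where the 1 call came without HMGd replicate 1. The remaining primary comparisons had 0 throughout. By library totals the DHMG minus EV log2 difference turned to -0.063 for mt-Rnr1 and -0.18 for mt-Rnr2. Ignoring strand, mt-Nd6 turned to -0.080 in DL2 and -0.32 in WT, each minus EV, where opposite-strand reads are counted with it. The cause of the other changes was not tested. By library totals the median of all genes moved to 0.12 for DL1 minus DL7, with 2477 genes higher and 581 lower against 1041 and 972 with TMM, and in DN2 minus DN1 to 0.22 with L1d (4821 and 1918 against 3023 and 2956), 0.19 with L7d (4601 and 2132 against 2923 and 3278) and 0.13 with P45 (4385 and 2418 against 3095 and 3398). DESeq2, counts ignoring strand and single libraries were not run for opposite-strand reads. Depth limits the tRNAs, which had 70 to 215 reads per cell line library.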
